A study of Mus musculus with 6 samples.

Results

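Trpv6, Slc5a5 and Slc30a3 are 3 genes whose proteins carry calcium, iodide and zinc across membranes, and their RNA was followed in each of 6 mouse lung tumour libraries. They are 3 of the 56980 Ensembl gene identifiers in the count table. All 3 are among the 17901 that passed the filter on low counts. Slc30a3, with 8, 13 and 14 reads in controls 1 to 3, passed it only through the knockouts. The 3 genes were chosen by their read counts in these libraries, which separate the groups. The difference between the groups is therefore described for them without a test. The tumours are labelled small cell lung cancer, a neuroendocrine carcinoma, in a mouse model named QKO, and were taken about 4 months after virus was given. Messenger RNA was sequenced from 3 control tumours and 3 tumours with Keap1 knockout, both on the QKO background. The study asked how Keap1 acts on the development of these tumours. What QKO stands for, how Keap1 was inactivated and whether each sample is a separate animal are not in the labels. The p-values below therefore measure only the spread between these samples, which may not be a spread between animals. Libraries of a group differed beyond sampling noise, with a chi-square per degree of freedom of 224 to 383 between controls and 29.7 to 60.1 between knockouts.

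TRPV6 is a calcium channel of the TRP family that stands open at rest and lets calcium enter epithelial cells from the gut or duct lumen. The cell then buffers the calcium with calbindins and pumps it out on the other side, and vitamin D raises the channel's expression in the intestine. SLC5A5, the sodium-iodide symporter NIS, uses the sodium gradient to draw iodide into thyroid cells, and also acts in stomach, salivary gland and lactating breast. SLC30A3, or ZnT3, loads zinc into synaptic vesicles of glutamatergic neurons. KEAP1 is an adaptor that sends NRF2, a transcription factor, to the proteasome, and freed NRF2 drives detoxification genes through the antioxidant response element (ARE).

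Read totals ran from 18731515 to 23759892 per library. Levels below are CPM, read counts divided by TMM-scaled library totals, and ± is the SD over 3 samples. Keap1 RNA overlapped between the groups, with a mean of 70.5 ± 10.4 CPM for controls and 80.2 ± 12.8 CPM for knockouts, and transcript level does not check a gene disruption. Of 7 NRF2 readout genes, 5 rose in the knockout by edgeR's quasi-likelihood test. Among all tested genes, edgeR called 4.31% at an adjusted p below 0.05, of which 2.42% were higher and 1.89% lower in the knockout (shares of all tested genes), DESeq2 called 26.6%, and the median log2 fold change was -0.08. The defining neuroendocrine gene Chga was high in control 3 alone, which stood apart from the other libraries, and near 0 in the knockouts. Chga, a secretory granule gene, reached 7.92, 0.495 and 948 CPM in the controls and at most 0.366 CPM in a knockout. The 10 neuroendocrine markers summed to 101, 56.2 and 4878 CPM in controls 1 to 3 and to 167, 49.4 and 27.4 CPM in knockouts 1 to 3. Of these, Calca stood at 37.0, 0.941 and 2037 CPM in controls and at 116, 32.5 and 20.0 CPM in knockouts, so not every marker was near 0 there. None of the 7 tested passed edgeR. The lung lineage factor Nkx2-1 was present in every library, from 326 to 535 CPM.

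Trpv6 (ENSMUSG00000029868) was close to silent in control tumours and abundant in every knockout tumour. Its reads numbered 51, 20 and 44 in control libraries 1 to 3, against 3207, 4551 and 3002 in knockout libraries 1 to 3. On the CPM scale these were 2.59, 0.991 and 2.19 in controls and 149.5, 208 and 132 in knockouts. The 3 knockouts all exceeded the 3 controls, and the lowest knockout lay 51.0-fold above the highest control. Groups that do not overlap, by any margin, were found in 40.7% of tested genes, with knockouts above in 21.5% and below in 19.1%, and nothing is read from this here because the separation chose the gene. Group means were 1.92 ± 0.832 and 163 ± 40.0 CPM (SD, n = 3 each), a fitted log2 fold change of 6.40 ± 0.47 (SE). The ratio of pooled, scaled reads was 85.0, with a 95% counting interval of 70.7 to 103. The authors' deposited table gives a log2 fold change of 6.40. Within the knockouts the highest library held 1.58-fold more than the lowest, and within the controls 2.61-fold. Control 2 was below control 3 beyond counting error, while the 95% Poisson intervals of controls 1 and 3 overlapped. The 250 bases before its RefSeq start (chr6:41636406-41636655, minus strand, build GRCm38.p6) are shown because they are the sequence next to the start that could be read for an NRF2 motif. They hold neither the ARE core (TGACNNNGC), the metal response element core (TGCNCNC) nor the AP-1 motif (TGANTCA) on either strand, so all letters are in lower case.
Trpv6: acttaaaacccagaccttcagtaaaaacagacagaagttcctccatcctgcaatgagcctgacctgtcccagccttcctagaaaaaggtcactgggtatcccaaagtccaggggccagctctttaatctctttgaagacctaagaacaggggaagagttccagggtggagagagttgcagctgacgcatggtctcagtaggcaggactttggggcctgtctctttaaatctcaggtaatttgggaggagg

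Slc5a5 (ENSMUSG00000000792) was likewise scarce in control tumours and abundant in knockout tumours. Controls 1 to 3 held 24, 62 and 23 reads and knockouts 1 to 3 held 1902, 3638 and 3372. In CPM the controls stood at 1.22, 3.07 and 1.15 and the knockouts at 88.7, 167 and 148. The groups did not overlap, and the lowest knockout, library 1, lay 28.9-fold above the highest control, library 2. Mean levels were 1.81 ± 1.09 CPM over the controls and 134 ± 40.7 CPM over the knockouts (SD, n = 3 each). The fitted log2 fold change was 6.21 ± 0.56 (SE), and the pooled ratio was 74.2, with a 95% counting interval of 61.5 to 90.5. The authors' deposited table has 6.20 on the log2 scale. Control 2 exceeded control 1 by 2.52-fold, beyond counting error, whereas controls 1 and 3 had overlapping intervals. Without control 2 the log2 fold change was 6.85. Among knockouts, library 2 exceeded library 3 by 1.12-fold and library 3 exceeded library 1 by 1.67-fold, each beyond counting error. Its promoter window (chr8:70892758-70893007, minus strand, GRCm38.p6) is shown for a match to the metal response element core, in capitals, whose first base lies 127 bases before the start.
Slc5a5: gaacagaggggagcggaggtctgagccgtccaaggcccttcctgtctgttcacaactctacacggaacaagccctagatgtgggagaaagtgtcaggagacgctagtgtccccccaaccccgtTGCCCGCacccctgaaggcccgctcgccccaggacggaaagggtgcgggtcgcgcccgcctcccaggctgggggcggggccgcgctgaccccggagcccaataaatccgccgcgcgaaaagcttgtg

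Slc30a3 (ENSMUSG00000029151) was almost absent from controls and, among the 3 genes, spread most widely over the knockouts, where the SD of log2 CPM was 1.12 against 0.48 for Slc5a5 and 0.34 for Trpv6. Control libraries 1 to 3 had 8, 13 and 14 reads, against 536, 2072 and 2236 in knockout libraries 1 to 3. These equal 0.406, 0.644 and 0.697 CPM in controls and 25.0, 94.9 and 98.3 CPM in knockouts. Knockout 1 stood apart from the other two knockouts, 3.796-fold below library 2, yet 35.9-fold above the highest control. Knockouts 2 and 3 did not differ beyond counting error, and the intervals of controls next to each other in level overlapped too. Means were 0.582 ± 0.155 CPM over the controls and 72.7 ± 41.4 CPM over the knockouts (SD, n = 3 each). The fitted log2 fold change was 6.95 ± 0.70 (SE), the pooled ratio 126 with a 95% counting interval of 90.2 to 181, and the log2 value of the authors' deposited table is 6.96. RefSeq gives the gene a pair of separate starts. Both windows are shown, since the data do not tell which start was used: Slc30a3 upstream start at chr5:31108245-31108494 and Slc30a3 downstream start at chr5:31093528-31093777, both on the minus strand of GRCm38.p6. The upstream window holds a metal response element core, in capitals, that begins 77 bases before the start.
Slc30a3 upstream: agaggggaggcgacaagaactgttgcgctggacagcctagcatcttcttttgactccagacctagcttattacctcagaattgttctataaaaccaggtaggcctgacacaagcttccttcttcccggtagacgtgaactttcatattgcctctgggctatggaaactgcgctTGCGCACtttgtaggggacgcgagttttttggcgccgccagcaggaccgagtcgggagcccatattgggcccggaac
Slc30a3 downstream: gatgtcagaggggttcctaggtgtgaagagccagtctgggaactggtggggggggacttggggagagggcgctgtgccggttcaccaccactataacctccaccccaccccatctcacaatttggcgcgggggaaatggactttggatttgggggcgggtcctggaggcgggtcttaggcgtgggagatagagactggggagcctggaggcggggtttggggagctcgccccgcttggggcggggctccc

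**Figure D1:**
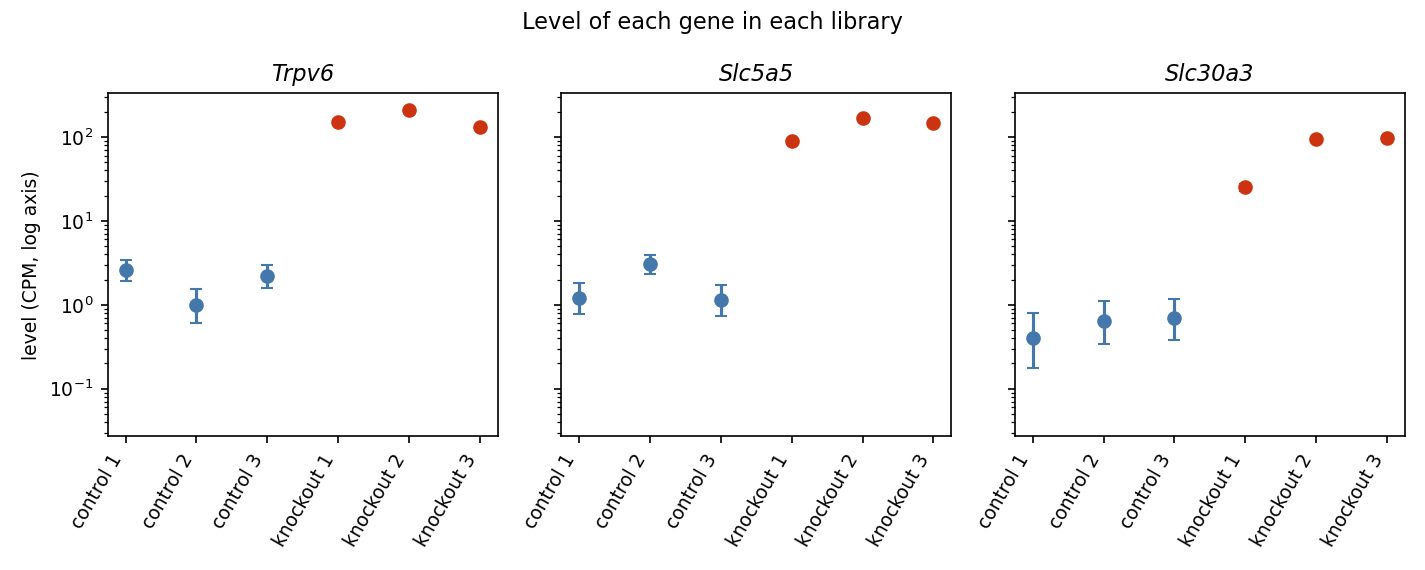
Level of Trpv6, Slc5a5 and Slc30a3 in CPM (log axis) in each library, controls in blue and Keap1 knockouts in red, with bars for the 95% Poisson counting interval. All knockout points lie above all control points, and knockout 1 is the lowest knockout for Slc5a5 and Slc30a3 (25.0 CPM).

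None of the 4 promoter windows of the 3 genes held an ARE core, which 10.2% of the 32851 promoter windows of the RefSeq table held. The metal response element core was in 2 of the 4 windows, and in 44.4% of all windows. No AP-1 motif was found, against 6.75% of all windows. Both strands were searched, and AP-1 and ARE matches may share bases. A match is a run of letters and not a shown binding site, and its absence concerns only these 250 bases.

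Among all tested genes, the log2 fold changes of Slc30a3, Trpv6 and Slc5a5 ranked 37, 48 and 56 from the highest. By mean CPM in controls Trpv6 lay above 18.8% of tested genes, Slc5a5 above 18.0% and Slc30a3 above 5.41%. In knockouts the shares were 93.0%, 90.8% and 79.6%. To set the genes beside each other, CPM were divided by exon length in kilobases, 3936 bases for Trpv6, 2928 for Slc5a5 and 2834 for Slc30a3. On this scale knockouts held 45.9 ± 13.9 for Slc5a5, 41.5 ± 10.2 for Trpv6 and 25.7 ± 14.6 for Slc30a3 (SD, n = 3 each), and the ranges of neighbours in this order overlapped. In controls the means per kilobase were 0.619 ± 0.373 for Slc5a5, 0.489 ± 0.211 for Trpv6 and 0.206 ± 0.0547 for Slc30a3. Without control 3, the log2 fold changes were 6.51 for Trpv6, 5.97 for Slc5a5 and 7.10 for Slc30a3. The 3 genes did not share 1 order of knockout libraries. Trpv6 was lowest in library 3 of the knockouts, and Slc5a5 and Slc30a3 in library 1. The summed level of the 7 NRF2 readout genes was also lowest in knockout 1, at 8918 CPM against 14329 and 12978 CPM in knockouts 2 and 3, and its part in these levels was not tested.

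In bulk tumour RNA, a larger share of cells that carry a transcript and more RNA per cell cannot be told apart. Markers of tissues known for these genes were therefore read beside them. Of 5 thyroid follicle markers 2 were tested and neither passed edgeR, and their summed level ran from 1.69 to 26.7 CPM in controls and from 0.746 to 1.92 CPM in knockouts. Thyroglobulin (Tg) was at 0, 0.549 and 0.352 CPM in knockouts 1 to 3. The 6 enterocyte markers summed to between 4.97 and 26.1 CPM in controls and between 6.59 and 29.2 CPM in knockouts, with the intestinal factor Cdx2 at 0 in every knockout, and none of the 3 tested passed edgeR. The 9 markers of neurons and glutamatergic synapses summed to between 10.8 and 679.7 CPM in controls and to no more than 6.43 CPM in knockouts. The vesicular glutamate transporter Slc17a7 reached no more than 0.504 CPM in any knockout.

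Other marker lists were read in the same way. Of 11 gastric and pancreatic markers 4 were tested and 1 passed, the elastase gene Cela1, which rose from 1.18 ± 0.437 to 24.7 ± 15.8 CPM (SD, n = 3 each), adjusted p 0.0337 by edgeR. That list summed to between 5.88 and 13.8 CPM in controls and between 16.2 and 49.6 CPM in knockouts, highest in knockout 1. Without Cela1 the other 10 members summed to between 4.98 and 12.1 CPM in controls and between 2.68 and 6.90 CPM in knockouts, and Prss1 and Ptf1a, markers of pancreatic acinar cells, were at or near 0. Gastric members of this sum differed in direction. Muc5ac stood at 5.48, 10.5 and 1.94 CPM in controls and at 1.59, 1.14 and 0.132 CPM in knockouts. Tff2 stood at 0.305, 0.595 and 0 CPM in controls and at 1.91, 2.15 and 1.36 CPM in knockouts. Neither passed edgeR. Gkn2, not tested, had 4 reads in the controls together and 83 in the knockouts. The 7 lung epithelium markers summed to between 960 and 3279 CPM in controls and between 3809 and 7906 CPM in knockouts, and none of them had an unadjusted p below 0.05 by edgeR. Squamous and basal markers summed to 6866, 8.87 and 2.39 CPM in controls 1 to 3 and to between 1.10 and 61.9 CPM in knockouts. Fibroblast markers summed to 325, 32871 and 2647 CPM in controls 1 to 3 and to between 254 and 744 CPM in knockouts, so each control stood apart in another marker list. Macrophage markers ran from 193 to 657 CPM in controls and from 128 to 167 CPM in knockouts. T and B cell markers summed to at most 8.32 CPM in any library, and endothelial markers ran from 72.4 to 259 CPM and from 88.3 to 142 CPM. The part of these cell types in the levels of the 3 transport genes was not tested.

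Among TRP channels other than Trpv6, the counts depended on the test. Of 27 other members 17 were tested, and 0 passed edgeR in either direction. An unadjusted p below 0.05 by edgeR was found for 6, beside 30.7% of all tested genes. Limma voom called 0 and DESeq2 called 6, all lower, beside 26.6% of all genes by DESeq2. The median log2 fold change of these 17 was -0.92. The members with the smallest p were Trpv2, at log2 fold change -1.90 ± 0.41 (SE), adjusted p 0.0556 by edgeR, and the polycystin gene Pkd2, with -1.03 ± 0.23 (SE), adjusted p 0.0588. Trpv5, the renal calcium channel most like TRPV6, had 1 read in the controls together and 5, 20 and 5 reads in knockouts 1 to 3, and was not tested. Its pooled ratio was 27.2, with a 95% counting interval of 4.53 to 1111. Trpv4, a mechanosensitive channel, stood at 21.6, 18.0 and 9.26 CPM in controls and 27.98, 21.9 and 23.5 CPM in knockouts (log2 fold change 0.58 ± 0.36, SE). Without control 3, edgeR called 8 of these channels, 1 higher and 7 lower. It called 17.2% of all genes tested in that fit against 4.31% with all libraries.

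Genes that carry calcium through epithelial cells with TRPV6 were not called by edgeR. Among 25 members 17 were tested, 0 passed edgeR and 7 had an unadjusted p below 0.05, beside 30.7% of all tested genes. Limma voom called 1 and DESeq2 called 5, of which 4 were lower, beside 26.6% of all genes by DESeq2. The median log2 fold change of these 17 was 0.09. The smallest p belonged to Vdr, the vitamin D receptor gene, at 41.6, 59.7 and 5.53 CPM in controls and 2.14, 1.65 and 1.14 CPM in knockouts, log2 fold change -4.43 ± 0.92 (SE), adjusted p 0.0538 by edgeR. The groups did not overlap for Vdr, with knockouts lower. Slc8b1, the mitochondrial sodium-calcium exchanger gene, stood at log2 fold change 1.44 ± 0.31 (SE), adjusted p 0.0560 by edgeR. S100g, which encodes calbindin-D9k, the calcium carrier of enterocytes, was at 10.7, 26.6 and 0.597 CPM in controls and 86.4, 47.0 and 21.1 CPM in knockouts, so the groups overlapped. Atp2b1, the plasma membrane pump that exports calcium, was at 181, 291 and 177 CPM in controls and 89.4, 110.3 and 91.2 CPM in knockouts (log2 fold change -1.16 ± 0.26, SE). Calb1 had no more than 0.22 CPM in any knockout. Without control 3, edgeR called 5 members of this list, 1 higher and 4 lower, beside 17.2% of all genes.

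Among genes of iodide transport and thyroid hormone, a few rose beside Slc5a5. Of 23 other members 18 were tested, and 2 rose and 0 fell by edgeR, beside 2.42% and 1.89% of all tested genes. An unadjusted p below 0.05 by edgeR was found for 9, beside 30.7% of all tested genes. Limma voom called 2 and DESeq2 called 8, all higher, beside 26.6% of all genes by DESeq2. The median log2 fold change of the 18 was 0.59. Kcne2, a potassium channel subunit needed for thyroid iodide uptake, rose from 2.56 ± 1.12 to 14.3 ± 4.25 CPM (SD, n = 3 each), log2 fold change 2.47 ± 0.49 (SE), adjusted p 0.0489 by edgeR. Thrb, the thyroid hormone receptor beta gene, rose from 8.38 ± 5.66 to 58.2 ± 12.8 CPM, log2 fold change 2.80 ± 0.55 (SE), adjusted p 0.0499 by edgeR. Both calls lay next to the threshold. Kcne2 had an adjusted p of 0.0748 by edgeR without control 1 and 0.0609 without control 2, and 0.0702 with no filter. Without any 1 of the knockouts neither gene passed. Thrb had 0.0870 without control 2 and 0.0501 under RLE scaling, by the same test.

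Genes of hydrogen peroxide supply and iodide recycling did not pass edgeR, and their log2 fold changes differed in sign. Duox2, an oxidase that makes hydrogen peroxide, stood at 8.27, 16.7 and 25.2 CPM in controls and at 251, 58.9 and 31.2 CPM in knockouts. Its maturation factor Duoxa2 stood at 3.60, 2.53 and 1.74 CPM and at 121, 26.9 and 17.2 CPM, log2 fold change 4.39 ± 0.89 (SE), adjusted p 0.0523 by edgeR. Duoxa2 shares 42.8% of its exon bases with Duoxa1 in GENCODE M21, so its count is uncertain. The paired oxidase Duox1 and its maturation factor Duoxa1 stood at log2 fold changes of -1.69 and -1.70, with overlapping groups. In controls 1 to 3 Duox1 was at 58.98, 0.545 and 1.49 CPM and Duoxa1 at 124, 1.49 and 0.597 CPM. For both genes every knockout lay below control 1 and above controls 2 and 3. The negative signs therefore rest on control 1. Slc26a4, the iodide exporter pendrin, was at 6.45, 2.68 and 0.548 CPM in controls and 50.8, 9.43 and 10.2 CPM in knockouts. Duox2, Duoxa2 and Slc26a4 were highest in knockout 1 among the knockouts, where Slc5a5 and Slc30a3 were lowest. Iyd, which frees iodide from iodotyrosines for reuse, had the other order, at 11.6, 32.8 and 56.9 CPM in knockouts 1 to 3, against 2.18, 8.62 and 0.349 CPM in controls. The TSH receptor gene Tshr had no more than 0.132 CPM in any knockout.

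Other sodium cotransporters of the SLC5 family were mostly too low to test. Besides Slc5a5, 4 of 12 members were tested, 0 passed edgeR and 1 had an unadjusted p below 0.05, beside 30.7% of all tested genes. Limma voom called 0 and DESeq2 called 1, higher, beside 26.6% of all genes by DESeq2. Slc5a6, the multivitamin transporter, stood at 16.5, 10.8 and 13.3 CPM in controls and at 22.1, 25.5 and 24.8 CPM in knockouts, log2 fold change 0.83 ± 0.26 (SE), adjusted p 0.102 by edgeR. Slc5a1, the intestinal glucose transporter, was at 19.2, 2.73 and 1.74 CPM in controls and 35.9, 42.1 and 34.8 CPM in knockouts, adjusted p 0.166 by edgeR. Slc5a8, the closest relative that moves monocarboxylates, reached 1.63 CPM in knockout 1 and no more than 0.264 CPM in any other library.

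No other zinc exporter of the SLC30 family was called by edgeR. Of 9 other members 8 were tested, 0 passed edgeR and 3 had an unadjusted p below 0.05, beside 30.7% of all tested genes. Limma voom called 0 and DESeq2 called 3, all lower, beside 26.6% of all genes by DESeq2. The median log2 fold change of the 8 was -0.12. Slc30a10, known as a manganese exporter, had 18, 57 and 574 reads in controls 1 to 3 and none in any knockout, so it was at least 238-fold lower with the knockout group set at 3 counts in all, and its adjusted p was 0.0882 by edgeR. Slc30a9 stood at log2 fold change -0.66 ± 0.21 (SE), adjusted p 0.104 by edgeR. Slc30a1, the exporter of the plasma membrane, stood at 24.5, 25.4 and 47.7 CPM in controls and at 36.5, 70.2 and 76.0 CPM in knockouts, again lowest in knockout 1, with overlapping groups. Slc30a8, the exporter of insulin granules, had no reads in knockouts.

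Zinc importers of the SLC39 family and metallothioneins, which bind zinc in the cytosol, were not called by edgeR. Of 14 importers 13 were tested, 0 passed edgeR and 2 had an unadjusted p below 0.05, beside 30.7% of all tested genes. Limma voom called 0 and DESeq2 called 2, both lower, beside 26.6% of all genes by DESeq2. The median log2 fold change of the 13 was -0.09. Slc39a14 stood at log2 fold change -2.38 ± 0.62 (SE), adjusted p 0.0751 by edgeR, and Slc39a6 at -1.72 ± 0.48 (SE), adjusted p 0.0836. Slc39a7 ran from 0.548 to 0.991 CPM in controls and from 0.140 to 0.484 CPM in knockouts, and 80.7% of its exon bases also belong to another GENCODE M21 gene, so its count is uncertain. Of the 4 tested among 5 metallothionein and MTF1 genes, 0 passed edgeR and 1 had an unadjusted p below 0.05. Limma voom called 0 and DESeq2 called 1, higher. These counts stand beside the same 30.7% and 26.6% of all genes. Mt1 stood at 266, 90.8 and 96.4 CPM in controls and at 384, 474 and 434 CPM in knockouts, log2 fold change 1.51 ± 0.47 (SE), adjusted p 0.0996 by edgeR. Mt3 had a log2 fold change of 1.52 ± 1.00 (SE). Mt2 shares 73.5% of its exon bases with another gene, so its low count, at most 1.93 CPM, is uncertain too.

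**Figure D2:**
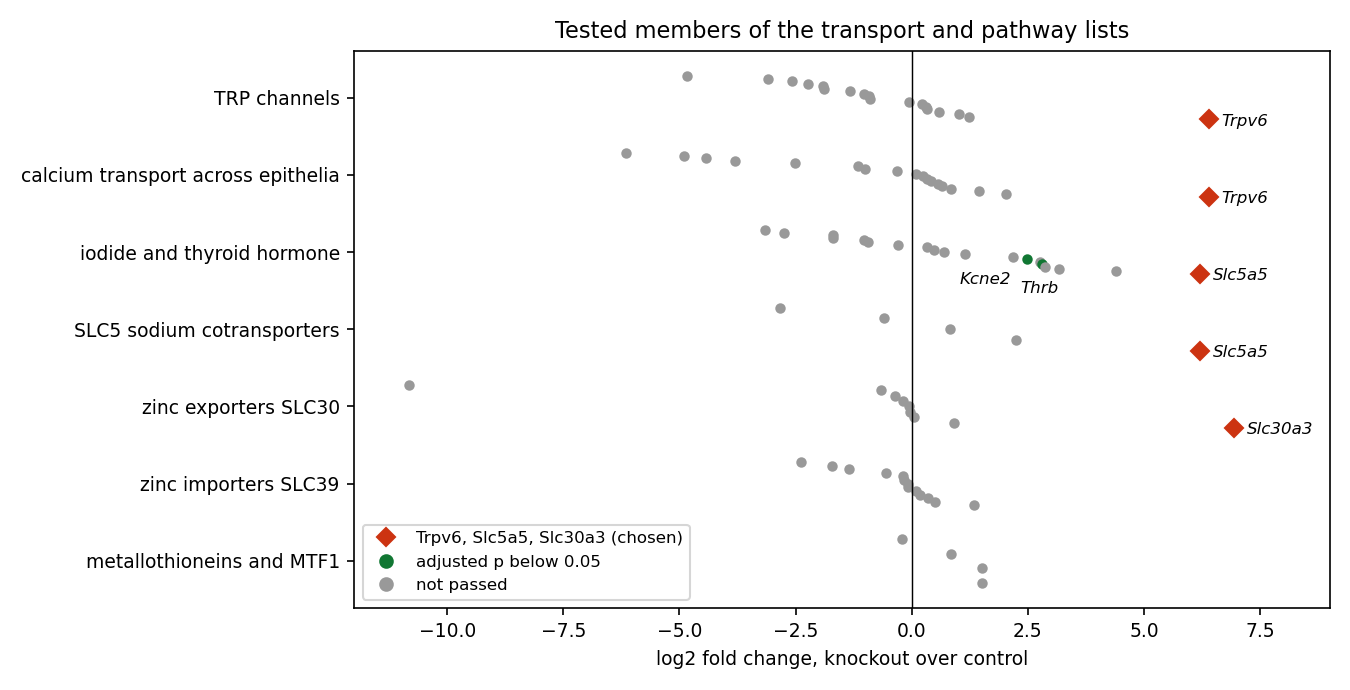
Log2 fold change of knockout over control (horizontal axis) for each tested member of 7 transport and pathway lists (rows), with the 3 chosen genes as red diamonds, members with an adjusted p below 0.05 in green and the rest in grey. Beside the chosen genes, Kcne2 and Thrb are the 2 members past the threshold, and no other tested member reaches the value of Slc5a5, 6.21.

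The genes next to the 3 transport genes on their chromosomes were read as well, taking the 5 nearest protein-coding genes on each side in RefSeq. This view was added with the level of Trim54 already known. Trim54 is therefore described without a test, and it passed the filter on low counts only through the knockouts. Of 30 neighbours 29 were in the count table and, apart from Trim54, 16 were tested. Of these 3 rose, among them Cad and Haus8, and 0 fell by edgeR, beside 2.42% and 1.89% of all tested genes. Next to Trpv6, 1 of 10 neighbours was tested. This was the receptor gene Ephb6, which adjoins it and overlapped between groups, at 39.3, 9.27 and 21.4 CPM in controls and 35.9, 29.4 and 32.7 CPM in knockouts. Trypsinogen genes on the same side (Prss1 and Prss2) had 1 and 0 reads in knockouts. On the other side Trpv5, which adjoins Trpv6, then Llcfc1 and Kel had few reads and were not tested. Trpv5 had 1 read in the controls together and 30 in the knockouts, Llcfc1 had 0 and 28, and Kel had 3 and 27. Olfr459 and Pip, further on, had no reads in any library. Next to Slc5a5, 2 of 9 tested neighbours rose. Of these, the microtubule-binding subunit gene Haus8 rose from 53.9 ± 12.8 to 148 ± 20.6 CPM (SD, n = 3 each), log2 fold change 1.46 ± 0.24 (SE), adjusted p 0.0392 by edgeR. Haus8 had an adjusted p of 0.0544 by edgeR without control 1 and 0.0639 without control 2. With any 1 of the knockouts left out, 0 neighbours passed. Ccdc124, on the other side of Slc5a5, stood at 0.33 on the same log2 scale without passing.

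Next to Slc30a3, Cad rose, and Trim54 had almost all its reads in knockouts. Trim54, a muscle ring-finger protein gene, had 1 read in control 1, none in controls 2 and 3, and 173, 307 and 290 reads in knockouts 1 to 3. The pooled ratio was 699, with a 95% counting interval of 125 to 27653. Knockout 1 was again the lowest, though less far below the other two than for Slc30a3. In RefSeq order Dnajc5g comes between Slc30a3 and Trim54, and it had no reads in any library. Beyond Trim54, the neuropeptide gene Ucn had no reads in controls and 0, 17 and 10 in knockouts, at least 8.17-fold higher with the control group set at 3 counts in all. Mpv17, the next gene, was at 17.3, 10.4 and 10.3 CPM in controls and 22.4, 23.4 and 25.1 CPM in knockouts without passing. On the other side Cad, the enzyme that starts pyrimidine synthesis, rose from 63.0 ± 26.1 to 255 ± 43.3 CPM (SD, n = 3 each), log2 fold change 2.02 ± 0.35 (SE), adjusted p 0.0417 by edgeR. In the 6 tested neighbours of Slc30a3 apart from Trim54, Cad included, the knockouts lay above the controls. Every knockout lay above every control in 21.5% of all tested genes. The log2 fold changes of these 6 neighbours ran from 0.39 to 2.02, with Cad the highest and Mpv17 next at 0.90.

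**Figure D3:**
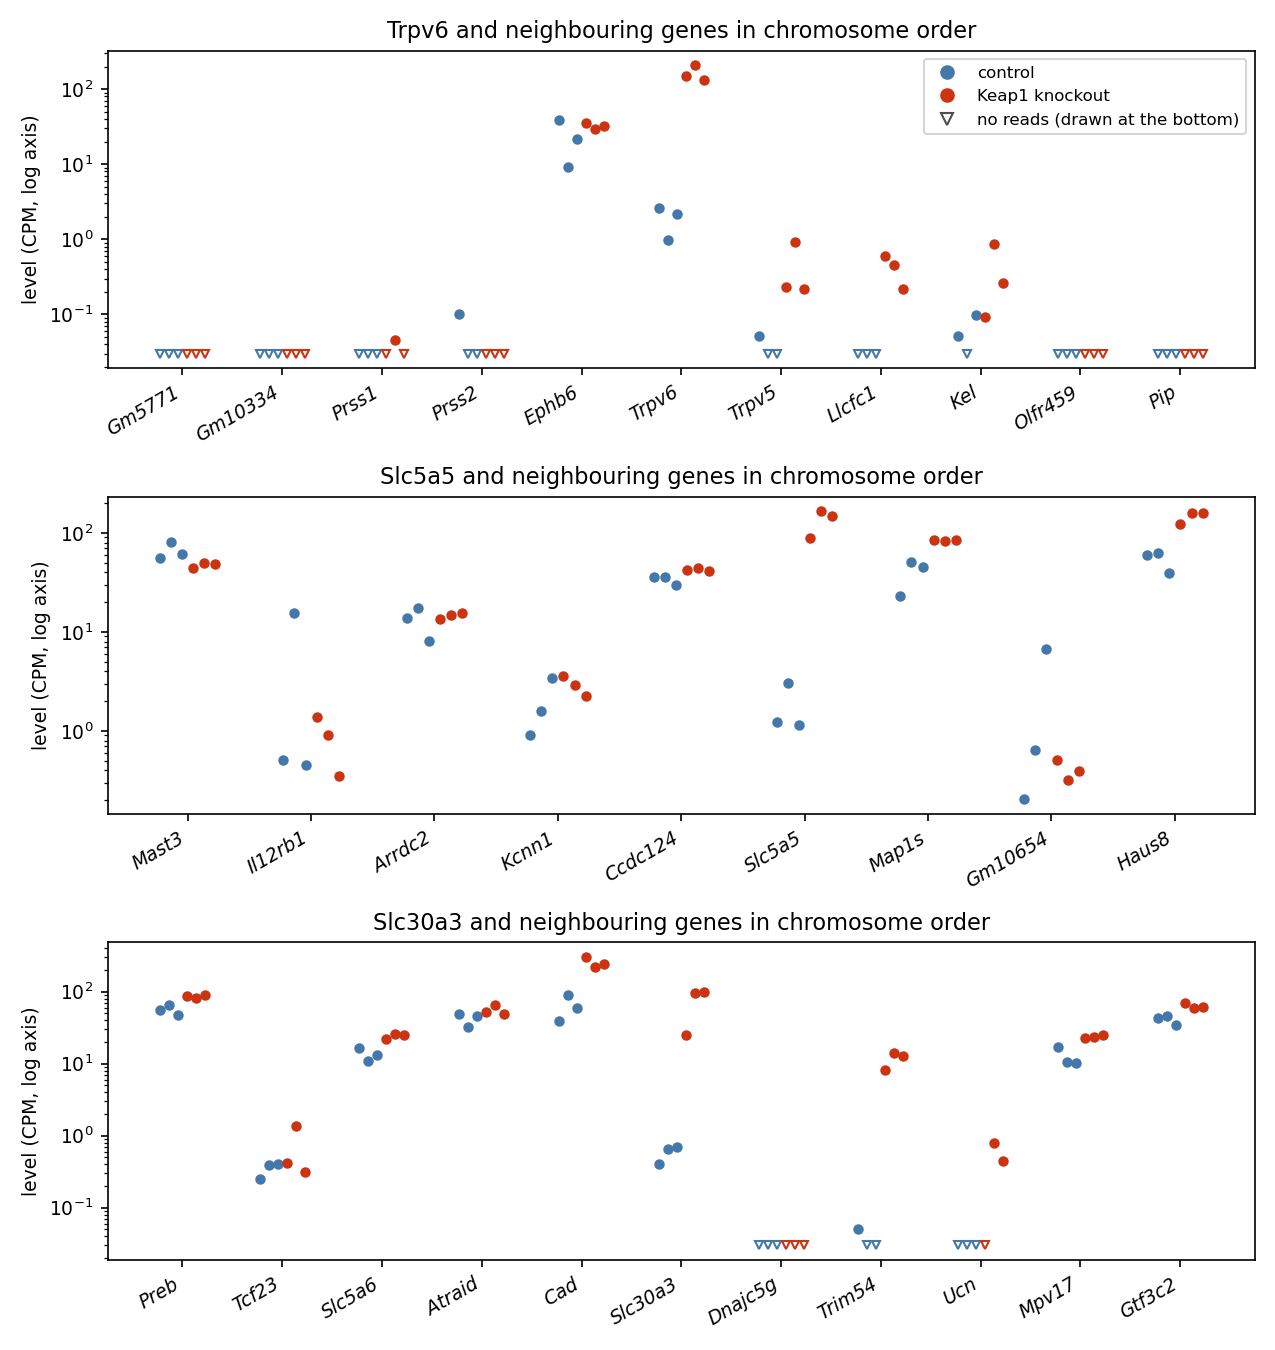
Levels in CPM (log axis) of Trpv6, Slc5a5 and Slc30a3 and of neighbouring protein-coding genes in the count table (1 is not drawn), in chromosome order, controls in blue and knockouts in red, with open triangles at the bottom for libraries without reads. Trim54 is the neighbour with the widest gap between groups, and Ephb6 beside Trpv6 overlaps between groups.

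No exon bases of the 3 genes belong to another GENCODE M21 gene, and 0 of their 50-base transcript stretches occur in a transcript of another gene. Gm9924 lies within the span of Slc30a3 on the opposite strand, without shared exon bases. It had 3, 0 and 1 reads in controls and 21, 91 and 63 in knockouts, which equals 3.92%, 4.39% and 2.82% of the Slc30a3 reads there. The strand setting of the counting is not given in the sources used here. Reads of this gene and intron reads of Slc30a3 cannot be told apart.

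The genes with the likest profiles were found by the root mean square difference of centred log2 CPM over the 6 libraries, among 15998 tested genes with a mean of at least 1 CPM. The group difference is part of each profile, so the ranking uses the contrast that chose the 3 genes and is a description. For Trpv6 the nearest were Trim54 (0.42), Sdr16c5 (0.45), Gm35330 (0.46), the neurotrophin gene Ntf3 (0.52) and the calreticulin family gene Calr3 (0.54). For Slc5a5 they were the glutathione transferase gene Gstm1 (0.30), Calr3 (0.43), Gm33460 (0.44), AC125544.1 (0.48) and the hemopexin gene Hpx (0.51). For Slc30a3 they were Calr3 (0.38), the carboxylesterase gene Ces1h (0.45), the adhesion molecule gene Ceacam2 (0.51), Gm35330 (0.56) and Slc5a5 (0.59). Calr3 was near all 3, at 1.17, 1.34 and 1.39 CPM in controls and 72.8, 138 and 137 CPM in knockouts. Gstm1 had the same high second control as Slc5a5, at 54.4, 143 and 55.3 CPM in controls, and stood at 6715 to 7082 CPM in knockouts. Ceacam2 had the low first knockout of Slc30a3, at 6.85, 50.4 and 41.8 CPM. Gstm1 and Ces1h have near relatives that may take part of their reads, which makes these levels uncertain. Sdr16c5, Gm35330 and Ces1h, with at most 2 reads in any control, were among the likest genes that passed the filter only through the knockouts. Among the 3 genes themselves, Trpv6 was the 34th likest to Slc5a5 and the 21st likest to Slc30a3.

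**Figure D4:**
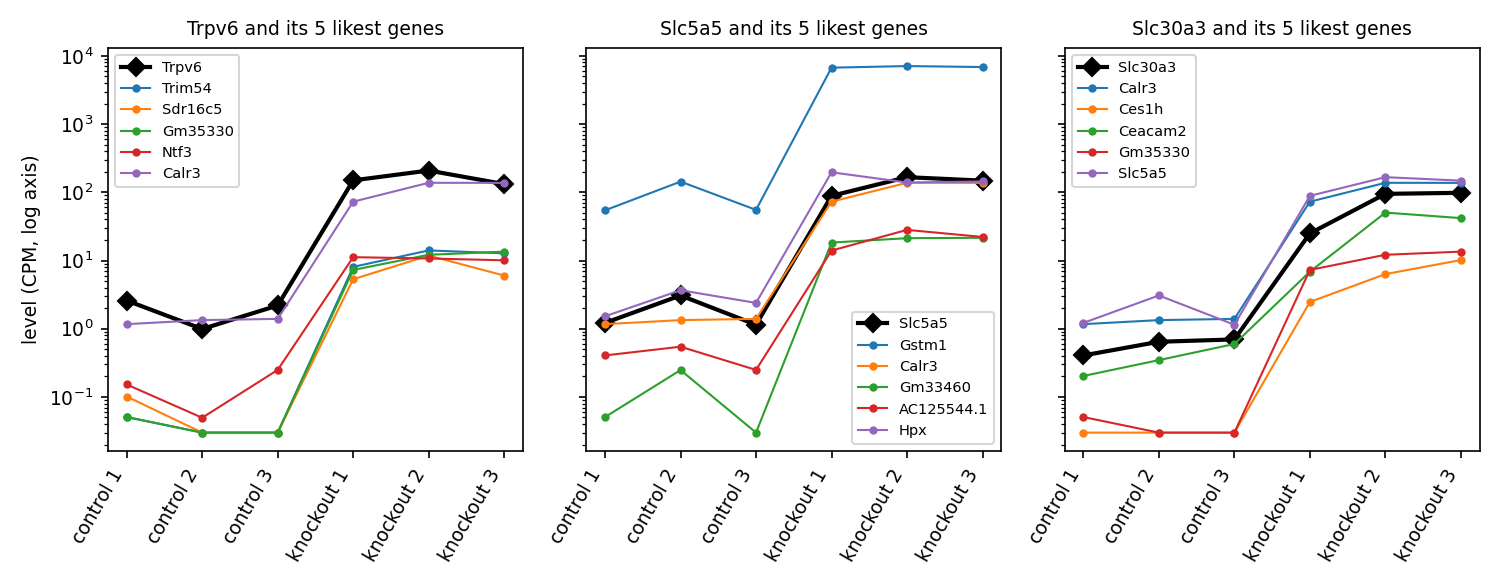
Levels in CPM (log axis) across the 6 libraries of Trpv6, Slc5a5 and Slc30a3 (black diamonds) and of the 5 genes with the likest centred log2 profile (coloured lines); libraries without reads are drawn at 0.03 CPM. Calr3 appears in each panel, and knockout 1 is the low knockout for Slc30a3 and Ceacam2 (6.85 CPM).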

How the data were processed

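The study sequenced mRNA of 3 control and 3 Keap1 knockout tumours. The authors deposited raw read counts per Ensembl gene, and columns were assigned through the sample descriptions. Alignment used STAR and mm39, per the submitters' processing notes. How reads were counted, with which annotation and strand setting, is not given in the sources used here. The authors' deposited comparison (DESeq2, per its file headers) holds a mean signal, log2 fold changes with a score, p-values and adjusted p-values; its positive sign was checked against the counts to mean higher in the knockout.

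A name table paired 52073 of 56980 identifiers with symbols. Genes kept by filterByExpr were scaled by TMM and fitted with the edgeR quasi-likelihood model (edgeR 4.0.16, R 4.3.3, robust, two-sided) with genotype as covariate, adjusted by Benjamini-Hochberg over all genes tested at a threshold of 0.05. SE is the absolute log2 fold change over the square root of F. Log2 CPM used a prior count of 2. Counting intervals are exact at 95% and cover counting error only. The fit was tested on simulated counts. Other settings were RLE scaling, upper-quartile scaling, no filter, 1 CPM in 3 samples, DESeq2 1.42.0, limma voom (limma 3.58.1), each sample left out, and the sample number as a block. Neighbours were added after the data were seen.

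The 3 genes and all lists were chosen with earlier results of these data known. By rule the text names Keap1, the 5 likest genes and, for each list, at most 4 members that passed, otherwise the 2 tested ones with the smallest p, and the defining markers. Trpv4, Trpv5, S100g, Atp2b1, Calb1, Duox1, Duox2, Duoxa1, Duoxa2, Slc26a4, Iyd, Tshr, Slc5a8, Slc30a1, Slc30a8, Slc39a7, Mt2, Gm9924 and the neighbours were named after their values were seen. RefSeq promoters and GENCODE M21 lengths belong to GRCm38, an earlier build than mm39. Results for some genes of the lists and neighbours are left out of the text.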

Additional observations from a re-analysis of the deposited data

How the results depend on the processing

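The fitted log2 fold changes of Trpv6, Slc5a5 and Slc30a3 stayed positive under every alternative run. This sign was fixed in advance, because the genes were chosen for separated groups, and nothing is read from it. Without any one sample the log2 fold changes ran from 6.11 to 6.68 for Trpv6 and from 6.69 to 7.39 for Slc30a3. For Slc5a5 the range was 5.97 to 6.85, highest without control 2. Counts of calls depended on the test and on single libraries. Over all genes edgeR called 771, and 465 with no filter, while DESeq2 called 4642. With the replicate number as a block edgeR called 0 of all genes, 0 neighbours and 0 other iodide genes. Deviations of same-numbered samples correlated at 0.018, 0.00012 and 0.051 over the tested genes. These correlations cannot show whether same-numbered samples share a batch or litter, since the controls differ widely from each other, and the labels give no pairing. Why calls were lost under the block was not tested. DESeq2 called 6 TRP channels, 5 calcium genes, 8 iodide genes, 1 SLC5 gene, 3 SLC30 genes, 2 SLC39 genes, 1 metallothionein and 9 neighbours. Over all genes DESeq2 called 26.6%. The other iodide genes called were 1 under RLE scaling and 1 with no filter. Calcium genes called were 1 by limma voom and 1 under the filter of 1 CPM in 3 samples. Leaving out 1 sample gave from 0 to 3209 calls over all genes, 0 to 8 TRP channels, 0 to 5 calcium genes, 0 to 3 iodide genes, 0 to 4 neighbours, and 0 to 1 in each of the SLC5, SLC30, SLC39 and metallothionein lists. The highest of these came without control 3 for all genes, TRP channels, calcium and iodide genes and SLC30. Without control 1 edgeR called 735 genes, 2 TRP channels, 3 neighbours and 1 gene in each other list except SLC30 (0). Without control 2 edgeR called 269 genes, 0 other iodide genes, 1 SLC39 gene and 2 neighbours, and without knockouts 1, 2 and 3 it called 2, 0 and 0 genes and 0 neighbours. The cause was not tested. Depth limits the control level of Slc30a3, which had 8 to 14 reads in each control. Neighbour counts here include Trim54.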
